A study of Mus musculus with 15 samples.

Results

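The question addressed here was whether the difference between arrays labelled Bcl11a-deficient and their controls changed when the pro-B cells also overexpressed Bcl2. All 12 pro-B arrays of the series were used, of 15 arrays in all, as a design of 4 groups with 3 arrays each. Bcl2+OHT is the label of Bcl2-rescued Bcl11a-deficient cells, and Bcl2-OHT that of wild type cells with Bcl2 overexpression. EAAE+OHT is the label of Bcl11a-deficient cells without added Bcl2, and EAAE-OHT that of wild type cells. The letters EAAE and OHT, and the promoter that drove Bcl2, are not spelled out in the labels. Both deficient groups carry OHT and neither wild type group does, so the deletion and OHT cannot be told apart. Mice of all 4 groups were 6 to 8 weeks old on a mixed C57BL/6 and 129S5 background, and their bone marrow was cultured for 10 days with IL-7, Flt3L and SCF at 50 ng/ml each. The design text names 3 batches of cultures per kind of cell, and the p-values measure the spread between arrays, which may be partly technical.

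Bcl11a is a zinc finger transcription factor required for the earliest steps of B cell development. Bcl2 is a protein of the outer mitochondrial membrane that holds back apoptosis by binding its pro-apoptotic relatives, and its overexpression lets lymphocytes that would otherwise die persist in culture. Pro-B cells proliferate in response to IL-7, and they rearrange their immunoglobulin heavy chain genes with the RAG recombinase.

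Levels are log2 intensities after background correction and quantile normalisation, and 9687 genes were detected on at least 3 arrays and tested with limma. The difference with Bcl2 is Bcl2+OHT minus Bcl2-OHT, the difference without Bcl2 is EAAE+OHT minus EAAE-OHT, and the interaction is the difference with Bcl2 minus the difference without it. A gene passed a comparison at a Benjamini-Hochberg adjusted p under 0.05 over all 9687 genes. EAAE-OHT replicate 3 stood apart, with a mean signal of 187 and 11473 detected probes, against 445 to 769 and 14946 to 16422 on the other 11 arrays. Its correlation with the other EAAE-OHT arrays was 0.917 to 0.919, against 0.984 or more within the other groups. Slide 1 held 1 array of each Bcl2 group and 2 of each EAAE group, and slide 2 held the reverse. Genes of the early B cell list were present throughout. Of its 32 genes, 25 were measured, and none of the 25 was below background on all arrays of any group. Igll1, the surrogate light chain, averaged 15.47 in Bcl2+OHT, 15.55 in Bcl2-OHT, 15.55 in EAAE+OHT and 15.55 in EAAE-OHT. The samples are bulk RNA, in which fewer cells of a type and less RNA per cell cannot be told apart.

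The brightest Bcl11a probe read 9.87, 10.26 and 10.30 on the arrays labelled Bcl2+OHT, 10.84, 11.02 and 10.95 on the arrays labelled Bcl2-OHT, 11.34, 11.65 and 11.48 on the arrays labelled EAAE+OHT and 9.57, 9.30 and 10.00 on the arrays labelled EAAE-OHT. With Bcl2 the arrays labelled deficient lay below their controls, and without Bcl2 they lay above them, with no overlap in either pair. The difference with Bcl2 was -0.79 ± 0.20 (SE, limma, adjusted p = 0.0123), 1.73-fold lower. Without Bcl2 it was 1.87 ± 0.20 (limma, adjusted p = 0.00327), 3.65-fold higher, which goes against the label. The interaction of Bcl11a was -2.66 ± 0.28 (limma, adjusted p = 0.000129). A second Bcl11a probe gave -0.67 ± 0.62 (limma, adjusted p = 0.57), and the remaining probe was not detected. Which part of the gene was deleted and where the probes lie was not known here, so which of them checks the label was not tested. Every direction below that rests on the EAAE arrays is therefore one between arrays labelled deficient and arrays labelled wild type.

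Turning the sign of the difference without Bcl2, as if those labels were exchanged, gave 1.08 for Bcl11a (limma, adjusted p = 0.0233), so the direction of its interaction depends on the label. Bcl2 itself averaged 7.73 ± 0.13 in Bcl2+OHT, 7.68 ± 0.66 in Bcl2-OHT, 8.55 ± 0.46 in EAAE+OHT and 8.51 ± 0.75 in EAAE-OHT (SD, n = 3 each). Its levels overlapped and its interaction was 0.02 ± 0.56 (limma, adjusted p = 0.99). Whether its probe reads the overexpressed form was not known here. Bcl11b, the related factor of T cells, was below background, and Trp53 was not analysed here.

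**Figure D1:**
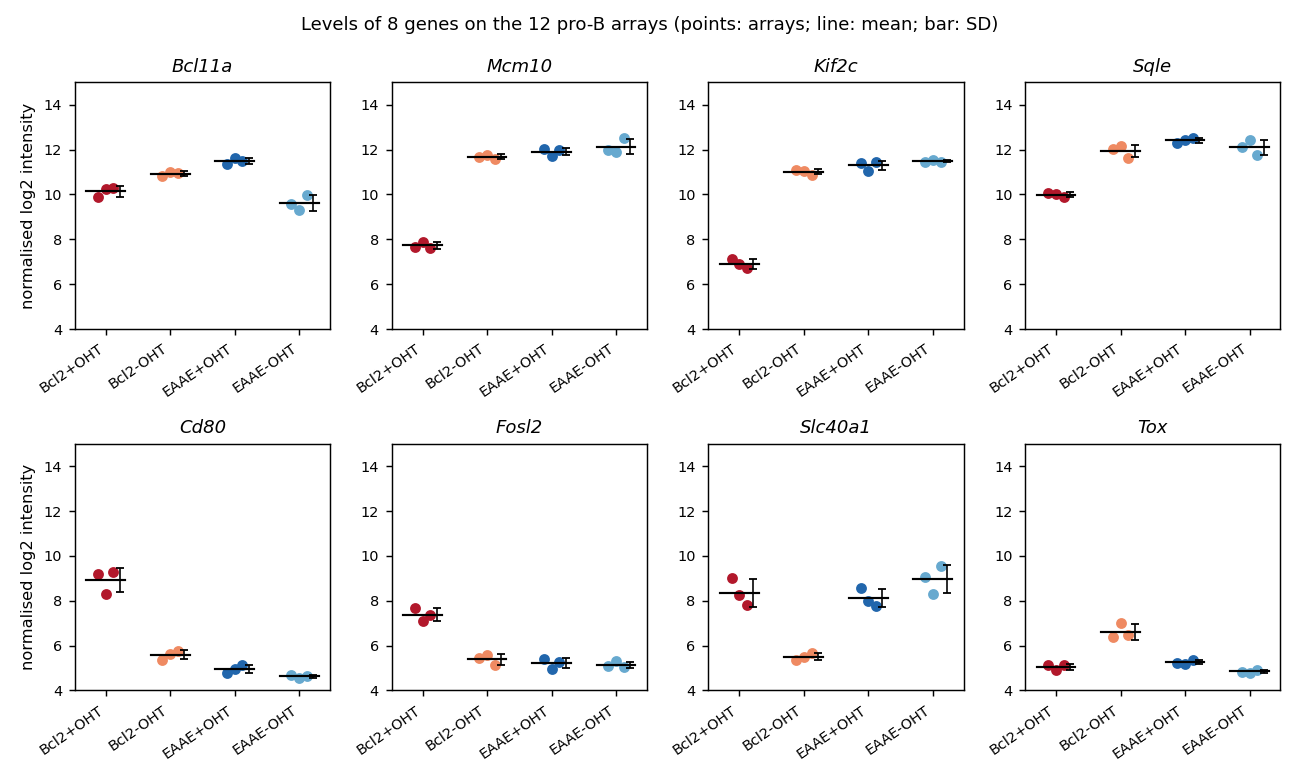
Level (log2 intensity, vertical axis) of 8 genes on each of the 12 arrays, by group on the horizontal axis, with points for arrays, a line for the mean of 3 arrays and a bar for the SD. Mcm10, Kif2c and Sqle are low and Cd80 and Fosl2 high in Bcl2+OHT, Slc40a1 is low and Tox high in Bcl2-OHT, and Bcl11a runs in opposite directions in the Bcl2 pair and the EAAE pair.

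Across all genes, 1047 of 9687 passed the interaction (10.8%), 449 with a higher difference with Bcl2 than without it (4.64%) and 598 with a lower one (6.17%). With the sign of the difference without Bcl2 turned, as if its labels were exchanged, 783 passed higher and 782 lower. The median interaction was 1.33 among the higher and -1.57 among the lower, and 0.04 over all genes tested. Interactions of at least 2 in size were found for 75 higher and 178 lower genes, and of at least 3 for 22 higher and 58 lower genes. The difference with Bcl2 passed for 2426 genes (25%), 1237 higher (12.8%) and 1189 lower (12.3%). That without Bcl2 passed for 3 genes (0.031%), 1 higher (0.0103%) and 2 lower (0.0206%), which were Bcl11a, Ift43 and Tgfb3. Bcl2+OHT against EAAE+OHT passed for 3826 genes (39.5%). Of the 1047 genes, 1014 also passed the difference with Bcl2, all with the sign of their interaction, and 2 passed the difference without Bcl2.

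The number of passing genes depended on single arrays. Without EAAE-OHT replicate 3, the dim array, 2006 genes passed. Without Bcl2+OHT replicate 1, 2 or 3 it was 621, 658 or 633 genes, without Bcl2-OHT replicate 2 it was 653, and without EAAE+OHT replicate 1 or 3 it was 688 or 692. Within slide 1, 116 genes passed, and within slide 2, 3412. In each of these, 1 array stood alone in 2 groups and was assumed to vary like the others. On slide 2 the lone EAAE-OHT array was replicate 3, the dim array, so the results within slide 2 rest in part on it. Median scaling in place of quantile normalisation moved the median interaction of all genes to -0.39, with 365 genes passing, of which 25.8% were higher, against 42.9% with quantile normalisation. The difference with Bcl2, which passed for 2426 genes, passed for 1004 under median scaling and for 4069 without EAAE-OHT replicate 3. Of the 115 genes named in the text that passed the interaction, 50 lost their call under median scaling, as stated with each. Within slide 1, 81 of them lost it, and the 34 that still passed there were Bcl11a, Grb10, Ahnak, Sapcd2, Pclaf, Sgo1, Pbk, Tk1, Kif11, Tyms, Cdkn3, Sln, Espn, Oip5, Mrvi1, Mfsd2a, Pif1, Kif2c, Mcm10, Mcm5, Cdc20, Cdc45, Fancd2, Rad54l, Ak1, Cd80, Bok, Hmgb2, Bcl6, Cd86, Fcgr3, Nkg7, Lmnb1 and S100a6. Measured from the median of all genes, the medians of 34 of 45 gene lists kept their sign in all alternatives other than the series matrix scores. The list medians given below are not measured from it, and those of 25 of 45 lists kept their sign in the same alternatives. The sign turned most often for basophil and mast cell markers, in 9 alternatives, and for p53 regulators, in 8.

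**Figure D2:**
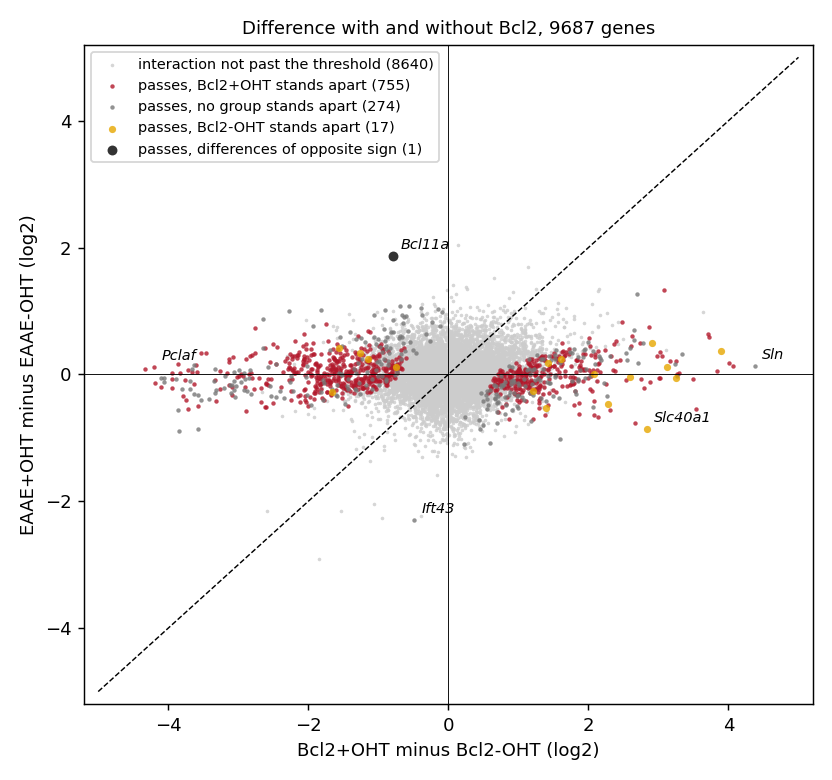
Each point is 1 of 9687 genes, placed by its difference with Bcl2 (Bcl2+OHT minus Bcl2-OHT, log2, horizontal axis) and without Bcl2 (EAAE+OHT minus EAAE-OHT, log2, vertical axis). The dashed line marks equal differences. The 755 genes with Bcl2+OHT apart spread along the horizontal axis, and Bcl11a and Ift43 lie away from it.

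The 4 group means were then used to ask which group stood apart. A group stood apart when the gene passed the interaction, the group's comparisons with each of the other 3 groups passed in the same direction, and no comparison among those 3 passed. Bcl2+OHT stood apart in 755 genes (7.79%), above the others in 311 (3.21%) and below them in 444 (4.58%). Bcl2-OHT stood apart in 17 genes (0.175%), 5 above (0.0516%) and 12 below (0.124%). Neither EAAE group stood apart in any gene (0%). Bcl11a was the 1 gene (0.0103%) in which both label differences passed with opposite signs, and 274 genes (2.83%) fell into no such class. Without EAAE-OHT replicate 3, Bcl2+OHT stood apart in 1163 genes, and without Bcl2+OHT replicate 1, 2 or 3 in 470, 491 or 469. Within slide 2 the dim EAAE-OHT replicate 3 was the whole of its group, so which group stood apart there rests in part on that array. The class with Bcl2-OHT apart held 6 genes without Bcl2-OHT replicate 3, 9 without Bcl2-OHT replicate 1 and 42 without EAAE-OHT replicate 3, 11 under median scaling, 2 within slide 1 and 31 with the replicate number as a block within each background.

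Some genes entered the test through 1 group alone. Of the 9687 genes, 98 were detected on the 3 arrays of 1 group and on no other array, so they were tested because that group was high. Of these 53 passed, 44 with Bcl2+OHT apart and 4 with Bcl2-OHT apart, and those named below are identified, since their calls rest on that selection. When detection on at least 1 array of every group was required, 940 of 8257 genes passed, 367 higher and 573 lower, with Bcl2+OHT apart in 705 and Bcl2-OHT apart in 10.

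The rule requires a passing interaction, so the same was counted without that requirement. Bcl2+OHT then stood apart in 1709 genes (17.6%), Bcl2-OHT in 36 (0.372%) and the EAAE groups in 0 (0%). By position alone, with no test, Bcl2+OHT lay farther from its nearest group than the other 3 groups spread in 899 of the 1047 passing genes and in 37.5% of all genes. The same held for Bcl2-OHT in 47 of the passing genes and 5.63% of all genes, for EAAE+OHT in 6 and 6.05%, and for EAAE-OHT in 2 and 10.1%.

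Genes with the largest interactions are described with their lists below, or here where they are on no list that moved. Grb10, an adaptor that binds insulin and growth factor receptors, read 11.77, 11.16 and 11.71 in Bcl2+OHT, 7.86, 7.19 and 7.55 in Bcl2-OHT, 7.62, 8.05 and 7.59 in EAAE+OHT and 7.67, 8.16 and 6.89 in EAAE-OHT. The 3 Bcl2+OHT arrays lay above the other 9, 16.2-fold above Bcl2-OHT (interaction 3.83 ± 0.44, limma, adjusted p = 0.00024). A second Grb10 probe gave -0.15 ± 0.35 (limma, adjusted p = 0.85). Lrrc15, a leucine-rich repeat membrane protein, averaged 10.14, 6.31, 5.76 and 5.71 in Bcl2+OHT, Bcl2-OHT, EAAE+OHT and EAAE-OHT, an order of groups kept for the means below. Its interaction was 3.78 ± 0.43 (limma, adjusted p = 0.000223). Mmp13, a collagenase, averaged 9.08, 6.41, 5.84 and 6.60, with an interaction of 3.43 ± 0.49 (limma, adjusted p = 0.00111). Dlx1, a homeobox factor, averaged 9.44, 5.73, 6.14 and 5.51, with an interaction of 3.08 ± 0.51 (limma, adjusted p = 0.00293). Bcl2+OHT stood apart above the other groups in all 4 of these genes. The Lrrc15 mean in EAAE-OHT and the Dlx1 means in Bcl2-OHT and EAAE-OHT lay below the lowest detected signals of those arrays. The sizes of the Lrrc15 and Dlx1 interactions are therefore uncertain.

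Among genes below background in at least 1 group, Sln, which encodes the calcium pump regulator sarcolipin, had the highest interaction. It read 11.70, 12.16 and 13.07 in Bcl2+OHT and 6.93, 8.52 and 8.35 in Bcl2-OHT, and was below background on all 6 EAAE arrays. Bcl2+OHT lay 20.8-fold above Bcl2-OHT (interaction 4.24 ± 0.59, limma, adjusted p = 0.000896). Sln was also at least 3.41-fold higher in Bcl2-OHT than in EAAE-OHT, so no group stood apart. Hey1, a Notch target repressor, averaged 10.15 and 6.60 in Bcl2+OHT and Bcl2-OHT, was below background in EAAE+OHT and averaged 5.87 in EAAE-OHT (interaction 4.09 ± 0.49, limma, adjusted p = 0.000307). Espn, an actin-bundling protein, read 9.23, 8.96 and 9.95 in Bcl2+OHT and was below background on the other 9 arrays, at least 12-fold higher with Bcl2 (interaction 3.93 ± 0.31, limma, adjusted p = 1.79e-05). Espn entered the test through Bcl2+OHT alone, and over the 19057 genes tested with no filter its adjusted p was 1.51e-05 (limma). Mrvi1 and Mfsd2a, a lipid transporter, were below background in Bcl2+OHT, at least 4.63-fold and 3.57-fold lower than in Bcl2-OHT, with interactions of -3.53 ± 0.33 and -3.48 ± 0.73 (limma, adjusted p = 4.55e-05 and 0.0109). The Mfsd2a call was lost with the sign of the difference without Bcl2 turned.

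**Figure D3:**
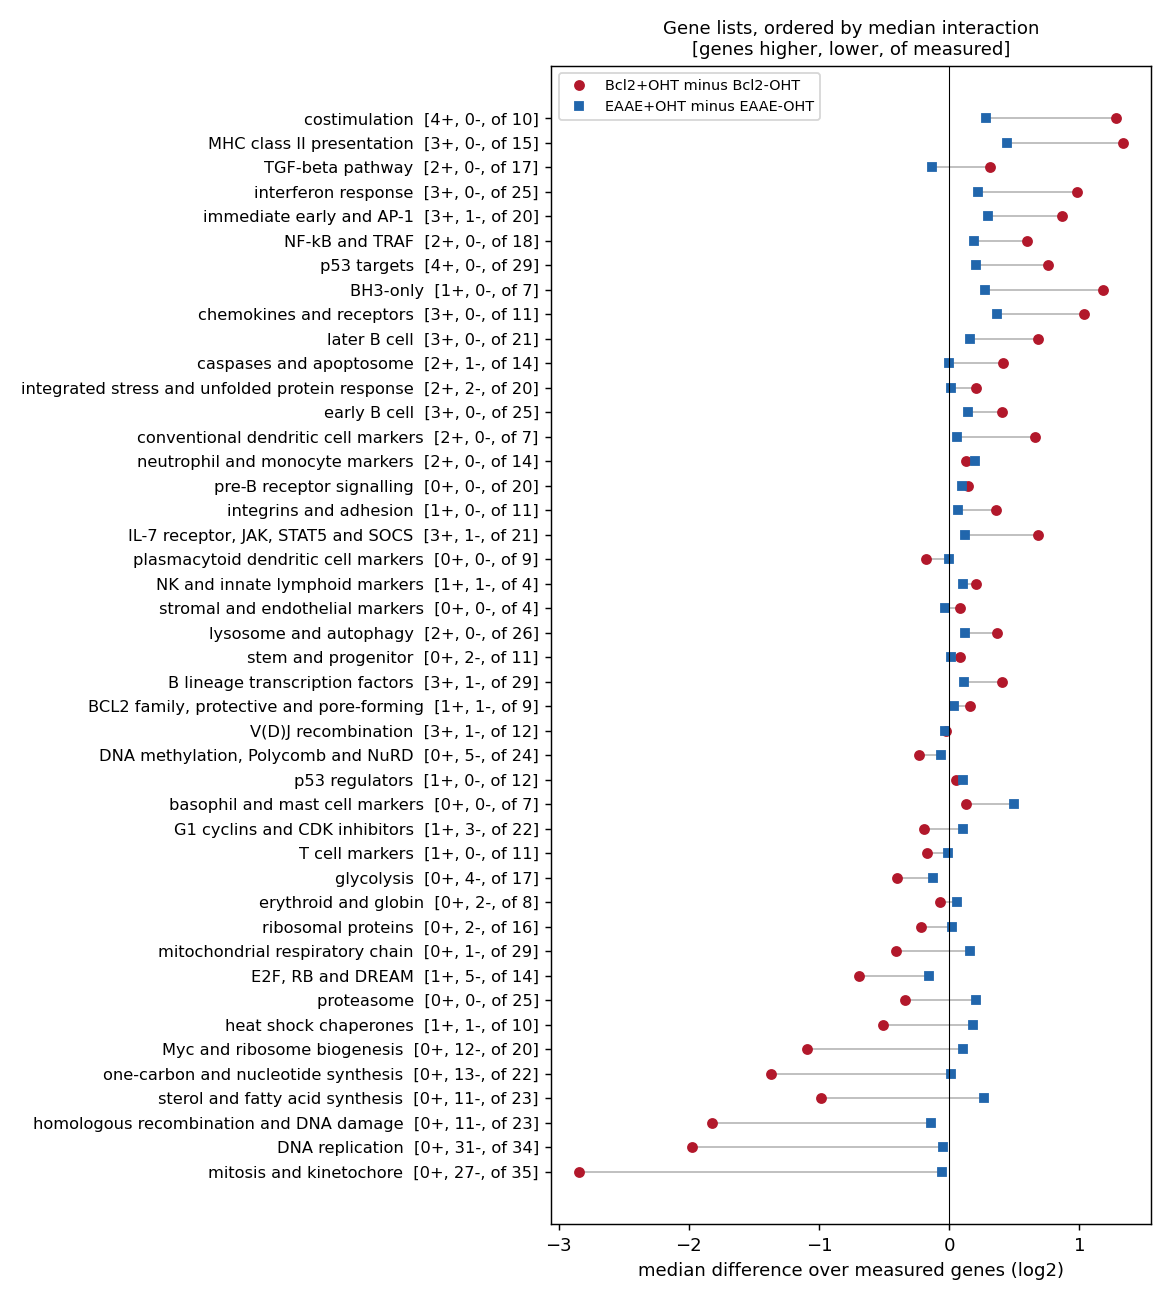
Median difference (log2, horizontal axis) over the measured genes of each of 44 lists, with Bcl2 (red circles) and without Bcl2 (blue squares). Brackets give the genes that passed the interaction higher and lower and the genes measured. Replication, mitosis and repair lie farthest to the left with Bcl2, and costimulation and MHC class II presentation lie farthest to the right.

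The DNA replication list, which holds origin, helicase, polymerase and clamp genes, was lower in Bcl2+OHT. Of its 42 genes 34 were measured, and 31 of them passed the interaction, all lower, against 6.17% of all genes. The list's median interaction was -1.95, its median difference was -1.97 with Bcl2 and -0.05 without Bcl2, and Bcl2+OHT stood apart below the other groups in 26 genes. Mcm10, a replication factor, read 7.66, 7.90 and 7.62 in Bcl2+OHT, 11.69, 11.78 and 11.57 in Bcl2-OHT, 12.03, 11.74 and 11.96 in EAAE+OHT and 11.98, 11.91 and 12.50 in EAAE-OHT. The Bcl2+OHT arrays lay below the other 9, among which neighbouring groups overlapped. With Bcl2 Mcm10 was 15.5-fold lower, and its interaction was -3.73 ± 0.26 (limma, adjusted p = 9.11e-06). Cdc45, a subunit of the active helicase, was 8.73-fold lower with Bcl2 and averaged 7.63, 10.75, 10.65 and 10.81 (interaction -2.97 ± 0.23, limma, adjusted p = 1.53e-05). Pclaf, which binds the clamp PCNA, averaged 7.15, 11.35, 12.13 and 12.02 and was 18.4-fold lower with Bcl2 (interaction -4.32 ± 0.41, limma, adjusted p = 5.5e-05). Pif1, a helicase, averaged 6.62, 10.46, 10.86 and 10.84 (interaction -3.86 ± 0.22, limma, adjusted p = 7.42e-06).

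Mcm5 and Mcm6, 2 subunits of the helicase ring that opens origins, fell together with Bcl2. Mcm5 read 10.90, 11.02 and 10.94 in Bcl2+OHT, 13.64, 13.60 and 13.43 in Bcl2-OHT, 13.98, 13.80 and 13.96 in EAAE+OHT and 14.02, 13.91 and 14.24 in EAAE-OHT. It was 6.09-fold lower with Bcl2 (interaction -2.46 ± 0.20, limma, adjusted p = 2.15e-05). Mcm6 averaged 9.28, 11.73, 12.36 and 11.93 and was 5.45-fold lower with Bcl2 (interaction -2.88 ± 0.49, limma, adjusted p = 0.0033), a call lost under median scaling. Their promoters are shown because E2F factors are known to bind MCM promoters, and these are the genes of the list with the smallest interaction p whose single promoter in the table holds such letters. The sequences are the 250 bases before the gene start from RefSeq, mouse build GRCm38.p6, chr8:75109259-75109508 on the plus strand for Mcm5 and chr1:128359706-128359955 on the minus strand for Mcm6. Capitals mark E2F letters, searched on both strands as TTTGGCGC, TTTCCCGC, TTTCGCGC or TTTGCCGC.
Mcm5: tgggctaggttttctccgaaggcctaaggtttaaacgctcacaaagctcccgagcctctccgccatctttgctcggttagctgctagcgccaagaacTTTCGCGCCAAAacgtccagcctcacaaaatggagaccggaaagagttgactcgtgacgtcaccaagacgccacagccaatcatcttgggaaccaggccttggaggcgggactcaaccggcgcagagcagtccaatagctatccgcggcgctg
Mcm6: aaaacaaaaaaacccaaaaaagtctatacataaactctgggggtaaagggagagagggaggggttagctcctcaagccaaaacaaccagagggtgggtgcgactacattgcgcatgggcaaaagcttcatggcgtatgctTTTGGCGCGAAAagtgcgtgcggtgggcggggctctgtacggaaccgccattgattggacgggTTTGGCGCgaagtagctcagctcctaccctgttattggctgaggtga
In Mcm5 a pair of overlapping matches lies 153 to 142 bases before the start. In Mcm6 a pair lies 110 to 99 bases before the start and a further match 47 to 40 bases before it. Of the 27 measured replication genes with a promoter in the table, 6 hold such letters (22.2%), against 4.0% of tested genes and 2.2% of all 27025 genes with a promoter. Mcm10 is among those without them.

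The mitosis and kinetochore list, with spindle motors, kinases and cohesion guards, was also lower in Bcl2+OHT. Of its 46 genes 35 were measured, and 27 passed the interaction, all lower, against 6.17% of all genes. The median interaction was -2.64, and the median difference was -2.85 with Bcl2 and -0.06 without Bcl2. Bcl2+OHT stood apart below in 15 of the 27, and the other 12 fell into no class. In the control comparison, Bcl2-OHT against EAAE-OHT, 14 of the 35 genes were lower, against 3.85% of all genes. Kif2c, a kinesin that depolymerises microtubules at kinetochores, read 7.13, 6.91 and 6.70 in Bcl2+OHT, 11.11, 11.07 and 10.87 in Bcl2-OHT, 11.40, 11.05 and 11.44 in EAAE+OHT and 11.46, 11.55 and 11.45 in EAAE-OHT. The Bcl2+OHT arrays lay below the other 9, 17.2-fold lower than Bcl2-OHT (interaction -3.91 ± 0.23, limma, adjusted p = 7.42e-06). Pbk, a mitotic kinase, averaged 8.10, 12.20, 12.97 and 13.03 and was 17.2-fold lower with Bcl2 (interaction -4.05 ± 0.26, limma, adjusted p = 7.42e-06). It was also lower in Bcl2-OHT than in EAAE-OHT, by -0.83 (limma, adjusted p = 0.0179), so it fell into no class.

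Other mitotic genes were among those with the lowest interactions. Sapcd2, a regulator of spindle orientation, averaged 6.67, 11.00, 11.52 and 11.44 and was 20.2-fold lower with Bcl2 (interaction -4.42 ± 0.34, limma, adjusted p = 1.53e-05). Sgo1, which protects cohesion at centromeres, averaged 6.18, 10.37, 10.92 and 11.04 (interaction -4.07 ± 0.34, limma, adjusted p = 2.45e-05). Kif11, the motor that separates spindle poles, averaged 6.30, 10.36, 11.27 and 11.32 (interaction -4.0 ± 0.37, limma, adjusted p = 4.84e-05). Oip5, which helps to deposit the centromere histone, was below background in Bcl2+OHT and at least 12.8-fold lower than in Bcl2-OHT (interaction -3.87 ± 0.30, limma, adjusted p = 1.53e-05). Plk1, the polo kinase that drives mitotic entry, did something else. It was below background on all 6 Bcl2 arrays, read 11.82, 12.42 and 11.85 in EAAE+OHT and 12.05, 12.67 and 12.67 in EAAE-OHT, and its interaction was 0.47 ± 0.33 (limma, adjusted p = 0.411). Plk1 was at least 80.1-fold lower in Bcl2+OHT than in EAAE+OHT and at least 101-fold lower in Bcl2-OHT than in EAAE-OHT (limma, adjusted p = 1.67e-08 and 2.38e-08). Sgo1 and Kif11 averaged 10.37 and 10.36 in the same Bcl2-OHT arrays. Whether the Plk1 probe reads its RNA alike in both backgrounds was not tested.

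The promoters of Cdc20 and Cdkn3 show the elements known from genes of the G2 and M phases, the cell cycle homology region (CHR) and the CCAAT box. They were chosen as genes of the list with the smallest interaction p whose single promoter in the table holds both elements. Kif2c, which ranked before them, holds a CHR but no CCAAT box. Cdc20, which activates the anaphase-promoting complex, averaged 10.02, 12.87, 13.44 and 13.49 and was 7.19-fold lower with Bcl2 (interaction -2.79 ± 0.19, limma, adjusted p = 9.11e-06). Cdkn3, a phosphatase of cyclin-dependent kinases, averaged 6.73, 10.79, 12.08 and 12.20 and was 16.7-fold lower with Bcl2 (interaction -3.94 ± 0.29, limma, adjusted p = 1.22e-05). The sequences are again 250 bases from RefSeq, GRCm38.p6, at chr4:118437344-118437593 on the minus strand for Cdc20 and chr14:46760291-46760540 on the plus strand for Cdkn3. Capitals mark the CHR, searched on both strands as TTTGAA or TTCGAA, and CCAAT, which on the other strand reads ATTGG.
Cdc20: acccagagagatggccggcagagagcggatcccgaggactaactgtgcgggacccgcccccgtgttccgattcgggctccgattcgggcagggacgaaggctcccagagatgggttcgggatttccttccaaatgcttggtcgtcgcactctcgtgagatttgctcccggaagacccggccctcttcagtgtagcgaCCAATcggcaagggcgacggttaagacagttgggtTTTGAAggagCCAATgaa
Cdkn3: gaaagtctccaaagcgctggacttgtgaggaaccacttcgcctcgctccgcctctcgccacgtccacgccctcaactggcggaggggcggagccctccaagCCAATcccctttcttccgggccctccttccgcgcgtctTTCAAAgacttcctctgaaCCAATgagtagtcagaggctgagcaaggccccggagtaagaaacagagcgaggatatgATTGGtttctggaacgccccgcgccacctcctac
Cdc20 holds 1 CHR at 18 to 13 bases before the start, between CCAAT boxes at 53 to 49 and 8 to 4 bases. Cdkn3 holds 1 CHR at 111 to 106 bases and CCAAT boxes at 149 to 145, 92 to 88 and 34 to 30 bases. Of the 27 measured mitosis genes with a promoter in the table, 12 hold a CHR (44.4%), and 18 hold a CCAAT box (66.7%). This compares with 15.2% and 41.1% of tested genes and 19.6% and 37.5% of all genes with a promoter. Among the genes that passed lower, 493 have a promoter in the table, of which 7.1% hold E2F letters, 21.3% a CHR and 52.7% a CCAAT box. Among the 365 that passed higher, the shares are 3.3%, 15.6% and 34.0%. These matches describe letters in a window and do not show binding.

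In the list of homologous recombination and DNA damage, 11 of 23 measured genes passed lower, against 6.17% of all genes, and none higher, with a median interaction of -1.48. Fancd2, of the Fanconi anaemia repair pathway, averaged 5.96, 9.31, 9.78 and 9.89 and was 10.2-fold lower with Bcl2 (interaction -3.25 ± 0.22, limma, adjusted p = 8.52e-06). Rad54l, a DNA translocase of recombination repair, averaged 7.41, 10.74, 11.04 and 11.14 (interaction -3.24 ± 0.23, limma, adjusted p = 1.22e-05). In the E2F, RB and DREAM list, 5 of 14 measured genes passed lower, against 6.17% of all genes, and 1 higher, against 4.64%, with a median of -0.49. E2f1, an activator of S phase genes, averaged 9.06, 10.76, 10.78 and 10.87 (interaction -1.62 ± 0.28, limma, adjusted p = 0.00373). Tfdp1, the partner of the E2F factors, averaged 10.30, 12.34, 12.32 and 12.33 (interaction -2.03 ± 0.35, limma, adjusted p = 0.00333). Rb1, the retinoblastoma repressor of E2F, was the gene that passed higher and averaged 10.60, 9.82, 10.22 and 10.39 (interaction 0.95 ± 0.21, limma, adjusted p = 0.013). The Tfdp1 and Rb1 calls were lost under median scaling, and that of Rb1 also with the sign of the difference without Bcl2 turned.

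Of 22 measured G1 cyclins, kinases and inhibitors, 3 passed lower, against 6.17% of all genes, and 1 higher, against 4.64%, with a median of -0.13. Cdk4, a G1 kinase, averaged 10.52, 12.45, 12.56 and 12.25 (interaction -2.25 ± 0.46, limma, adjusted p = 0.00981). Myc, a growth-promoting factor counted in this list, averaged 6.25, 8.44, 8.44 and 7.91 (interaction -2.72 ± 0.63, limma, adjusted p = 0.0187). Its adjusted p ran between 0.000779 and 0.053 when 1 array was left out, and the call was lost without Bcl2+OHT replicate 2 or EAAE+OHT replicate 1. Cdkn2b, which inhibits Cdk4, was the gene that passed higher and averaged 10.31, 8.37, 6.38 and 6.00 (interaction 1.56 ± 0.40, limma, adjusted p = 0.0296). Its call was lost, with an adjusted p up to 0.0788, without Bcl2+OHT replicate 2 or 3, Bcl2-OHT replicate 1 or 2, EAAE+OHT replicate 1 or 3, or EAAE-OHT replicate 2. Under median scaling the calls of Cdk4, Myc and Cdkn2b were lost, and that of Myc also with the sign of the difference without Bcl2 turned. Lamin B1 (Lmnb1), on the chromatin list, averaged 10.50, 13.25, 14.04 and 13.71 (interaction -3.09 ± 0.31, limma, adjusted p = 8.4e-05). Uhrf1, which maintains DNA methylation behind the replication fork, averaged 10.91, 12.44, 12.81 and 12.98 (interaction -1.36 ± 0.24, limma, adjusted p = 0.00397). In that list of DNA methylation, Polycomb and NuRD genes 5 of 24 passed lower, against 6.17% of all genes, and none higher, with a median of -0.10.

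Biosynthetic genes were lower in Bcl2+OHT as well. One-carbon and nucleotide synthesis had 13 of 22 measured genes lower, against 6.17% of all genes, and none higher. In all 13 Bcl2+OHT was apart below, against 4.58% of all genes, and the list had a median interaction of -1.33. Tyms, the thymidylate synthase, read 7.11, 7.30 and 7.07 in Bcl2+OHT, 11.18, 11.14 and 11.00 in Bcl2-OHT, 11.76, 11.49 and 11.64 in EAAE+OHT and 11.97, 11.88 and 10.99 in EAAE-OHT. The Bcl2+OHT arrays lay below the other 9, and Tyms was 15.4-fold lower with Bcl2 (interaction -3.96 ± 0.33, limma, adjusted p = 2.15e-05). Over its 4 kept probes, of which 2 passed, the interaction ran from -3.96 to 0.07. Tk1, which salvages thymidine, averaged 7.08, 10.95, 11.38 and 11.22 (interaction -4.02 ± 0.35, limma, adjusted p = 3.27e-05). Shmt1, which moves 1-carbon units between serine and folate, averaged 8.47, 11.31, 11.45 and 11.44 (interaction -2.85 ± 0.29, limma, adjusted p = 9.63e-05). In the list of Myc and ribosome biogenesis, 12 of 20 measured genes passed lower, against 6.17% of all genes, and none higher, all 12 with Bcl2+OHT apart, against 4.58%, with a median of -1.23. Nop58, a core protein of box C/D nucleolar RNPs, averaged 10.48, 12.13, 12.75 and 12.48 (interaction -1.92 ± 0.31, limma, adjusted p = 0.00232). Polr1a, the large subunit of RNA polymerase I, averaged 10.35, 11.79, 11.46 and 11.57 (interaction -1.33 ± 0.26, limma, adjusted p = 0.00786). The Polr1a call was lost when the mean of its kept probes was used.

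In sterol and fatty acid synthesis, 11 of 23 measured genes passed lower, against 6.17% of all genes, and none higher, 10 with Bcl2+OHT apart, against 4.58%, and the median interaction was -1.35. Sqle, the squalene epoxidase, read 10.08, 10.01 and 9.88 in Bcl2+OHT, 12.01, 12.18 and 11.65 in Bcl2-OHT, 12.30, 12.41 and 12.52 in EAAE+OHT and 12.13, 12.41 and 11.75 in EAAE-OHT. The Bcl2+OHT arrays lay below the other 9, and the difference with Bcl2 was 3.88-fold (interaction -2.27 ± 0.28, limma, adjusted p = 0.000363). Cyp51, which demethylates lanosterol, averaged 8.09, 10.25, 10.30 and 9.99 and was 4.47-fold lower with Bcl2 (interaction -2.46 ± 0.32, limma, adjusted p = 0.000566). The list's median difference was -0.99 with Bcl2 and 0.26 without it.

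Glycolysis had 4 of 17 measured genes lower, against 6.17% of all genes, and none higher, with a median of -0.28. Ldha, lactate dehydrogenase A, averaged 12.26, 14.03, 14.68 and 14.82 (interaction -1.64 ± 0.26, limma, adjusted p = 0.00192), and Gapdh 11.96, 13.42, 14.04 and 13.99 (interaction -1.51 ± 0.30, limma, adjusted p = 0.0082). Ribosomal proteins had 2 of 16 lower, against the same 6.17%, and none higher, with a median of -0.38. These were Rpl4, which averaged 10.30, 11.84, 12.09 and 11.99 (interaction -1.63 ± 0.27, limma, adjusted p = 0.00307), and Rpl30 with an interaction of -1.08 ± 0.28 (limma, adjusted p = 0.0327). The Rpl30 call was kept without Bcl2+OHT replicate 3, Bcl2-OHT replicate 1, EAAE+OHT replicate 2 or EAAE-OHT replicate 1 or 3, and was lost without any other array, with an adjusted p up to 0.0838. The mitochondrial respiratory chain had 1 of 29 lower, cytochrome c (Cycs), which averaged 11.12, 12.11, 12.27 and 12.37 (interaction -0.89 ± 0.20, limma, adjusted p = 0.0139). A second kept Cycs probe gave 0.62. The Cycs call was lost under median scaling, within each slide and with the mean of both probes, which gave -0.13 (limma, adjusted p = 0.797). The Gapdh and Rpl30 calls were lost under median scaling. The respiratory chain list had a median of -0.48, and its 1 of 29 compares with 6.17% of all genes. Cox5a, of complex IV, had an interaction of -0.88 (limma, adjusted p = 0.0522), and 0.0474 with the replicate number as a block within each background. It was under 0.05 without EAAE-OHT replicate 1 or 3. None of 25 proteasome genes passed, with a median of -0.54, and Psma7 was nearest at -1.17 ± 0.34 (limma, adjusted p = 0.0502), which was under 0.05 without any 1 of the 3 EAAE-OHT arrays.

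Among heat shock chaperones, 1 of 10 passed lower, against 6.17% of all genes, and 1 higher, against 4.64%, with a median of -0.61. Hspd1, the mitochondrial chaperonin, averaged 9.50, 10.96, 11.27 and 10.89 (interaction -1.85 ± 0.36, limma, adjusted p = 0.00748). Hspa1a, a stress-induced Hsp70, averaged 7.30, 5.63, 5.29 and 4.94 (interaction 1.32 ± 0.32, limma, adjusted p = 0.0229), and its call was lost, up to 0.0684, without any 1 Bcl2+OHT array or Bcl2-OHT replicate 1 or 2. Outside Bcl2+OHT the Hspa1a means lay below the lowest detected signals of those arrays, so the size of its interaction is uncertain. The integrated stress and unfolded protein response list had 2 of 20 higher, against 4.64%, and 2 lower, against 6.17%. Its median was 0.41, and -0.18 under median scaling. Ppp1r15a, the GADD34 phosphatase subunit, averaged 10.05, 8.42, 8.41 and 8.18 (interaction 1.40 ± 0.28, limma, adjusted p = 0.00896). Psat1, of serine synthesis, averaged 9.54, 11.74, 12.12 and 11.84 (interaction -2.48 ± 0.48, limma, adjusted p = 0.00717). The lysosome and autophagy list had 2 of 26 higher, against 4.64% of all genes, and none lower, with a median of 0.20, and -0.27 under median scaling. Its members were Cd63, described below, and the autophagy receptor Sqstm1, which averaged 12.72, 11.10, 11.12 and 10.63 (interaction 1.13 ± 0.33, limma, adjusted p = 0.0486). The Sqstm1 call was kept without EAAE+OHT replicate 2 or EAAE-OHT replicate 3 and lost without any other array, up to 0.12. The Hspd1, Psat1, Ppp1r15a, Cd63 and Sqstm1 calls were lost under median scaling, and that of Hspd1 also with the sign of the difference without Bcl2 turned.

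For p53 target genes, 4 of 29 measured genes passed the interaction higher, against 4.64% of all genes, and none lower. The median interaction was 0.61, and 0.02 under median scaling, where all genes had a median of -0.39. With Bcl2, the difference passed higher for 13 genes, against 12.8% of all genes, and Bcl2-OHT exceeded EAAE-OHT in 11, against 4.28%. Bcl2+OHT exceeded EAAE+OHT in 21, against 21.3%. Bcl2+OHT stood apart in 1 gene of the list, Ak1, an adenylate kinase, which read 8.61, 8.14 and 8.63 in Bcl2+OHT. The other 9 arrays were below background, and Ak1 was at least 6.32-fold higher with Bcl2 (interaction 2.97 ± 0.27, limma, adjusted p = 4.52e-05). Cd80, a costimulatory ligand also on this list, read 9.20, 8.29 and 9.28 in Bcl2+OHT and was below background on the other 9 arrays, at least 8.72-fold higher with Bcl2 (interaction 3.02 ± 0.34, limma, adjusted p = 0.000235). Ak1 and Cd80, 2 of the 4 passing genes, entered the test through Bcl2+OHT alone, and with no filter their adjusted p was 4.02e-05 and 0.000257 (limma).

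Cdkn1a, the p21 cell cycle inhibitor, averaged 14.36, 12.83, 11.78 and 11.47, and its interaction was 1.21 ± 0.38 (limma, adjusted p = 0.0661). It was under 0.05 without EAAE+OHT replicate 2 or EAAE-OHT replicate 3, and it was 0.0235 with the replicate number as a block within each background. The remaining passing genes were Mdm2 and Fas. Mdm2, the ubiquitin ligase of p53, averaged 13.94, 12.72, 12.02 and 11.93 (interaction 1.13 ± 0.29, limma, adjusted p = 0.0282). Its call was kept without Bcl2-OHT replicate 3, EAAE+OHT replicate 2 or any 1 EAAE-OHT array and lost without any other array, up to 0.0788. Fas, a death receptor, averaged 10.63, 7.94, 7.08 and 5.81 (interaction 1.43 ± 0.40, limma, adjusted p = 0.0436). In EAAE-OHT Fas lay, on average, below the lowest detected signals of those arrays. Its call was kept without Bcl2+OHT replicate 2, EAAE+OHT replicate 2 or EAAE-OHT replicate 1 or 3 and lost without any other array, up to 0.107. The Mdm2 and Fas calls were lost under median scaling. Mdm2 was also the 1 of 12 measured p53 regulators that passed higher, against 4.64% of all genes, with a list median of -0.11.

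Of 7 measured BH3-only genes, the sensors that oppose BCL2, 1 passed higher, against 4.64% of all genes, and the median was 0.57, and -0.094 under median scaling. Bcl2l11, which encodes BIM, read 13.78, 13.71 and 13.87 in Bcl2+OHT, 11.92, 11.78 and 11.79 in Bcl2-OHT, 11.09, 11.41 and 11.06 in EAAE+OHT and 10.98, 11.11 and 10.27 in EAAE-OHT. The 2 Bcl2 groups did not overlap with each other or with the EAAE groups, which overlapped. Bcl2l11 was 3.88-fold higher with Bcl2 (interaction 1.55 ± 0.30, limma, adjusted p = 0.00676). Its other 3 kept probes gave 0.45 to 1.27 and did not pass. Its call was lost with the mean of its kept probes, within slide 1 and under median scaling, where it was 0.80 (limma, adjusted p = 0.597). Bbc3, which encodes PUMA, averaged 13.81, 12.43, 10.93 and 10.61, with an interaction of 1.06 (limma, adjusted p = 0.172), and Pmaip1, which encodes NOXA, had 0.92 (limma, adjusted p = 0.117), under 0.05 without EAAE-OHT replicate 1. Of 9 measured protective and pore-forming BCL2 family genes, 1 passed in each direction, against 4.64% of all genes higher and 6.17% lower, with a median of 0.14. That median was 0.016 with genes below background set at their bound and -0.12 under median scaling, and it turned sign in 6 alternatives. Bok, a pore-forming member, was below background in Bcl2+OHT and averaged 8.25, 9.17 and 9.42 in the other groups, at least 5.85-fold lower with Bcl2 (interaction -3.07 ± 0.29, limma, adjusted p = 5.45e-05). A second kept Bok probe gave -0.22. Mcl1, a protective member, averaged 12.81, 11.82, 11.55 and 11.66 (interaction 1.10 ± 0.27, limma, adjusted p = 0.0243). Its call was lost, up to 0.0683, without Bcl2+OHT replicate 1 or 2, Bcl2-OHT replicate 1 or 2, or EAAE+OHT replicate 1 or 3. It was also lost under median scaling and with the sign of the difference without Bcl2 turned.

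Of 14 measured caspase and apoptosome genes, 2 passed higher, against 4.64% of all genes, and 1, Cycs, lower, against 6.17%, with a median of 0.41, and -0.18 under median scaling. The higher ones were the inflammatory caspases. Casp4 read 10.19, 10.22 and 9.86 in Bcl2+OHT, 8.25, 8.60 and 7.93 in Bcl2-OHT, 8.73, 8.75 and 8.22 in EAAE+OHT and 8.73, 8.22 and 8.64 in EAAE-OHT. Only the Bcl2+OHT arrays stood clear of the rest, 3.55-fold above Bcl2-OHT (interaction 1.79 ± 0.32, limma, adjusted p = 0.00451). Casp1 averaged 12.81, 11.70, 11.91 and 11.88 and was 2.16-fold higher with Bcl2 (interaction 1.08 ± 0.20, limma, adjusted p = 0.0048). Both calls were lost within slide 1 and under median scaling, where Casp1 was 0.46 (limma, adjusted p = 0.646).

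Interferon response genes were higher in Bcl2+OHT in part. Of 25 measured, 3 passed the interaction higher, against 4.64% of all genes, and none lower, with a median of 0.68. With Bcl2, the difference passed higher for 15, against 12.8% of all genes, and its median was 0.98, compared with 0.22 for the difference without Bcl2. Ifit3, an interferon-induced protein that binds viral RNA complexes, read 10.10, 10.32 and 10.29 in Bcl2+OHT, 7.71, 7.09 and 6.84 in Bcl2-OHT, 7.96, 8.01 and 7.91 in EAAE+OHT and 7.65, 7.22 and 7.97 in EAAE-OHT. The Bcl2+OHT arrays lay above the other 9, 8.13-fold above Bcl2-OHT (interaction 2.68 ± 0.34, limma, adjusted p = 0.000443). Gbp2, a guanylate-binding protein, averaged 14.11, 11.96, 11.85 and 11.67 and was 4.43-fold higher with Bcl2 (interaction 1.97 ± 0.28, limma, adjusted p = 0.00111). Igtp, an immunity-related GTPase, averaged 10.97, 9.60, 9.97 and 9.74 (interaction 1.14 ± 0.22, limma, adjusted p = 0.00749). The Gbp2 and Igtp calls were lost under median scaling. The promoter of Ifit3 is shown for its interferon-stimulated response elements (ISRE), searched on both strands as GAAA, 2 bases of any kind and GAAA again. The 250 bases are from RefSeq, GRCm38.p6, chr19:34583279-34583528 on the plus strand, and capitals mark the matches on the other strand.
Ifit3: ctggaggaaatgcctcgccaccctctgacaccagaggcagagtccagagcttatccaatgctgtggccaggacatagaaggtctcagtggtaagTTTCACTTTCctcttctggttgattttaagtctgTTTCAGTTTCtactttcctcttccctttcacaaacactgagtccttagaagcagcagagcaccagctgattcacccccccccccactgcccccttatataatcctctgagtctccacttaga
The matches lie 156 to 147 and 122 to 113 bases before the start. Of the 19 measured interferon genes with a promoter in the table, 10 hold the letters (52.6%), Gbp2 and Igtp among them. This compares with 3.5% of tested genes and 3.5% of all genes with a promoter. Among passing genes the share is 5.2% of the higher and 2.2% of the lower.

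In the list of immediate early and AP-1 genes, 3 of 20 measured genes passed higher, against 4.64% of all genes, and 1 lower, against 6.17%, with a median of 0.66, and 0.11 under median scaling. Fosl2 and Atf3, 2 of the passing genes, entered the test through Bcl2+OHT alone, and the Atf3 call (limma, adjusted p = 0.0216) was lost without Bcl2-OHT replicate 2 or 3 or EAAE+OHT replicate 2, up to 0.0621. Without any 1 Bcl2+OHT array Atf3 did not pass the detection filter and was not tested. Fosl2, a subunit of AP-1, read 7.68, 7.11 and 7.37 in Bcl2+OHT and was below background on the other 9 arrays, at least 3.00-fold higher with Bcl2 (interaction 1.94 ± 0.28, limma, adjusted p = 0.00111, and 0.00119 with no filter). Jun, its partner, averaged 10.37, 8.32, 8.03 and 8.06 (interaction 2.07 ± 0.46, limma, adjusted p = 0.0144). In the NF-kB and TRAF list, 2 of 18 passed higher, against 4.64%, and none lower, with a median of 0.65, and 0.12 under median scaling. Traf1, an adaptor induced by NF-kB, averaged 7.25 in Bcl2+OHT and was below background in the other groups, at least 2.74-fold higher with Bcl2 (interaction 2.14 ± 0.28, limma, adjusted p = 0.000591). Traf1 also entered the test through Bcl2+OHT alone, and with no filter its adjusted p was 0.000619 (limma). Bcl3, a nuclear IkB protein, averaged 7.88, 6.23, 5.99 and 5.70 (interaction 1.35 ± 0.38, limma, adjusted p = 0.0436). In EAAE-OHT Bcl3 lay, on average, below the lowest detected signals of those arrays. The Bcl3 call was kept without Bcl2-OHT replicate 3, EAAE+OHT replicate 2 or EAAE-OHT replicate 1 or 3 and lost without any other array, up to 0.111. The Jun, Atf3 and Bcl3 calls were lost under median scaling.

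In the list of the IL-7 receptor, JAK, STAT5 and SOCS genes, 3 of 21 measured genes passed higher, against 4.64% of all genes, and 1 lower, against 6.17%, with a median of 0.26, and -0.29 under median scaling. Socs3, a feedback inhibitor of cytokine receptors, read 11.31, 11.40 and 11.59 in Bcl2+OHT, 9.21, 9.24 and 9.47 in Bcl2-OHT, 9.27, 9.38 and 9.09 in EAAE+OHT and 9.18, 9.02 and 9.88 in EAAE-OHT. The 3 Bcl2+OHT arrays were the highest, 4.36-fold above Bcl2-OHT (interaction 2.24 ± 0.30, limma, adjusted p = 0.000783). Cish, a STAT5 target of the same family, averaged 14.20, 13.05, 13.52 and 13.36 (interaction 0.99 ± 0.21, limma, adjusted p = 0.0118). Gfi1, a repressor in the blood lineages, was the gene that passed lower and averaged 8.65, 9.96, 9.24 and 9.22 (interaction -1.33 ± 0.27, limma, adjusted p = 0.00962). The Cish and Gfi1 calls were lost under median scaling. Il7r, the IL-7 receptor chain, averaged 12.44, 11.60, 10.68 and 10.45, with an interaction of 0.60 ± 0.24 (limma, adjusted p = 0.132).

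Chemokines and their receptors had 3 of 11 measured genes higher, against 4.64% of all genes, and none lower, with a median of 0.48. Ccl4, an inflammatory chemokine, read 11.70, 12.07 and 11.58 in Bcl2+OHT, 8.80, 8.40 and 8.28 in Bcl2-OHT, 9.16, 8.86 and 8.42 in EAAE+OHT and 8.80, 8.17 and 9.39 in EAAE-OHT. Its Bcl2+OHT arrays lay above the other 9, and it was 9.76-fold higher with Bcl2 (interaction 3.26 ± 0.43, limma, adjusted p = 0.000594). Ccl5, a further inflammatory chemokine, averaged 7.84, 5.85, 5.44 and 5.51 (interaction 2.06 ± 0.38, limma, adjusted p = 0.00534). Its EAAE+OHT and EAAE-OHT means lay below the lowest detected signals of those arrays, so the size of its interaction is uncertain. Integrins and adhesion genes had 1 of 11 higher, against 4.64% of all genes, and none lower, with a median of 0.26, and -0.092 under median scaling. This was Itga5, the fibronectin receptor chain, which averaged 8.01, 5.65, 6.26 and 5.78 (interaction 1.89 ± 0.35, limma, adjusted p = 0.00527). The Itga5 means in Bcl2-OHT and EAAE-OHT also lay below the lowest detected signals of those arrays. In the TGF-beta pathway 2 of 17 measured genes passed higher, against 4.64% of all genes, and none lower, with a median of 0.73. Of these 2, Ift43, described below, is on the list only as the neighbour of Tgfb3, which leaves Eng. Eng, a TGF-beta coreceptor, averaged 9.17, 7.63, 8.28 and 8.03 (interaction 1.29 ± 0.35, limma, adjusted p = 0.038). The Eng call was kept without Bcl2-OHT replicate 1, EAAE+OHT replicate 2 or EAAE-OHT replicate 1 or 3 and lost without any other array, up to 0.103, and it was also lost under median scaling.

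**Figure D4:**
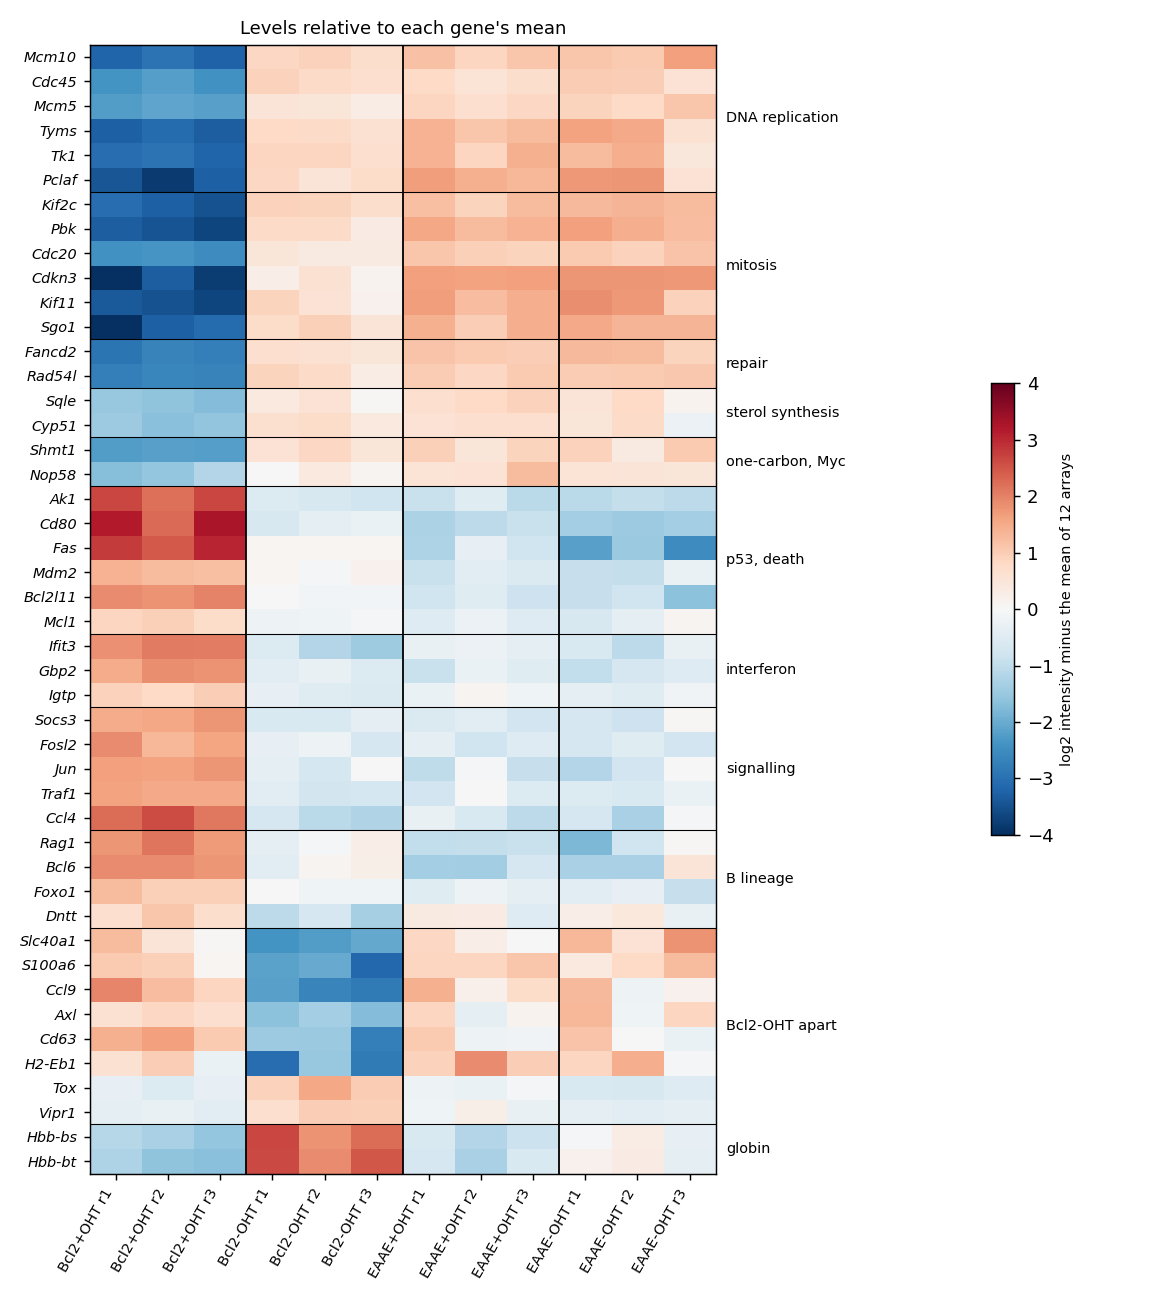
Level of described genes on each of the 12 arrays, as log2 intensity minus the gene's mean over the arrays (colour, scale from -4 to 4), with genes in rows and arrays in columns by group. The 3 Bcl2+OHT arrays differ from the other 9 in most rows, and the rows of Slc40a1, Ccl9 and S100a6 are low in the 3 Bcl2-OHT arrays.

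In the early B cell list 3 of 25 measured genes passed higher, against 4.64% of all genes, and none lower, with a median of 0.34, and -0.28 under median scaling. Dntt, the terminal transferase that adds bases at V(D)J joins, averaged 9.04, 7.19, 8.27 and 8.34 and was 3.61-fold higher with Bcl2 (interaction 1.92 ± 0.40, limma, adjusted p = 0.00988). It was lower in Bcl2-OHT than in EAAE-OHT by -1.15 (limma, adjusted p = 0.0289), so it fell into no class. Rag1, the recombinase, averaged 11.17, 9.25, 8.35 and 8.45 (interaction 2.03 ± 0.52, limma, adjusted p = 0.0294). Its call was kept without Bcl2-OHT replicate 3 or EAAE-OHT replicate 1 or 3 and lost without any other array, up to 0.0798. Foxo1, which activates the Rag genes, averaged 12.09, 10.91, 10.67 and 10.46 (interaction 0.96 ± 0.26, limma, adjusted p = 0.0358). The Foxo1 call was kept without EAAE+OHT replicate 2 or EAAE-OHT replicate 3 and lost without any other array, up to 0.101. The Dntt, Rag1 and Foxo1 calls were lost under median scaling.

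In the V(D)J recombination list 3 of 12 measured genes passed higher, against 4.64% of all genes, and 1 lower, against 6.17%, with a median of -0.09. Xrcc6, the Ku70 end-binding protein, averaged 15.38, 14.34, 13.94 and 14.02 (interaction 1.12 ± 0.29, limma, adjusted p = 0.0309). Its call was kept without Bcl2-OHT replicate 3, EAAE+OHT replicate 2 or any 1 EAAE-OHT array and lost without any other array, up to 0.0861. It was also lost under median scaling and with the replicate number as a block within each background (limma, adjusted p = 0.0567). Hmgb2, a DNA-bending cofactor of the recombinase that is also high in dividing cells, was the gene that passed lower and averaged 10.31, 12.60, 13.18 and 13.09 (interaction -2.39 ± 0.26, limma, adjusted p = 0.00015). Among B lineage transcription factors 3 of 29 passed higher, against 4.64%, and 1, Bcl11a, lower, against 6.17%, with a median of 0.19, and -0.38 under median scaling. Bcl6, a repressor that supports survival of pre-B cells, averaged 11.30, 9.43, 8.31 and 8.77 (interaction 2.32 ± 0.59, limma, adjusted p = 0.0287). Its call was lost, up to 0.0755, without any 1 Bcl2+OHT array, Bcl2-OHT replicate 1 or 2, or EAAE+OHT replicate 1 or 2, and with the sign of the difference without Bcl2 turned. None of 20 pre-B receptor signalling genes passed, with a median of 0.27, and -0.29 under median scaling.

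Of 21 measured later B cell genes 3 passed higher, against 4.64% of all genes, and none lower, with a median of 0.48, and -0.18 under median scaling. Ltb, lymphotoxin beta, averaged 11.84, 9.74, 9.15 and 8.88 (interaction 1.82 ± 0.43, limma, adjusted p = 0.0195). The Ltb call was lost, up to 0.0586, without Bcl2+OHT replicate 3, Bcl2-OHT replicate 1 or 2, or EAAE+OHT replicate 1 or 3. Btla, an inhibitory receptor, averaged 9.51, 7.94, 8.81 and 9.18 (interaction 1.95 ± 0.49, limma, adjusted p = 0.026). The Btla call was lost, up to 0.068, without any 1 Bcl2+OHT array, Bcl2-OHT replicate 1 or 3, EAAE+OHT replicate 1 or EAAE-OHT replicate 2, and with the sign of the difference without Bcl2 turned. Costimulation had 4 of 10 measured genes higher, against 4.64% of all genes, and none lower, with a median of 1.19. Besides Cd80, these included Cd86, a further ligand of CD28, which averaged 7.72, 5.62, 6.62 and 6.45 (interaction 1.93 ± 0.27, limma, adjusted p = 0.00102). The Cd86 mean in Bcl2-OHT lay below the lowest detected signals of those arrays. Cd83, which marks activated B cells and dendritic cells, averaged 8.37, 6.13, 6.92 and 6.54 and was 4.72-fold higher with Bcl2 (interaction 1.86 ± 0.34, limma, adjusted p = 0.00545). Of the 4, Cd80 and Tnfsf4 entered the test through Bcl2+OHT alone, and Tnfsf4 (limma, adjusted p = 0.0476) did not pass with no filter (0.0627) or without any 1 array of Bcl2-OHT or EAAE+OHT or EAAE-OHT replicate 1 or 2. Without any 1 Bcl2+OHT array Tnfsf4 did not pass the detection filter and was not tested. The Ltb, Btla, Cd83 and Tnfsf4 calls were lost under median scaling.

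Cd80, Cd86 and Cd83 are also used by conventional dendritic cells, whose marker list was therefore followed. Of its 19 genes 7 were measured, 2 passed higher, against 4.64% of all genes, and none lower, and its median was 0.34, and -0.05 under median scaling. Its summed linear intensity ran over 15680 to 17810 in Bcl2+OHT, 9905 to 12300 in Bcl2-OHT, 13380 to 15120 in EAAE+OHT and 6771 to 10800 in EAAE-OHT, and 0, 2, 1 and 2 of the 7 were below background. Zbtb46, a factor of conventional dendritic cells, averaged 6.27 in Bcl2+OHT and was below background in the other groups, at least 1.39-fold higher with Bcl2 (interaction 1.47 ± 0.27, limma, adjusted p = 0.0054). Zbtb46 entered the test through Bcl2+OHT alone, and with no filter its adjusted p was 0.00622 (limma). Id2, an inhibitor of E proteins, averaged 9.42, 7.69, 8.63 and 8.24 (interaction 1.33 ± 0.36, limma, adjusted p = 0.0373), and its call was kept without EAAE+OHT replicate 2 or any 1 EAAE-OHT array and lost without any other, up to 0.1, and under median scaling. The part of such cells in the costimulation result was not tested.

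Bcl2-OHT stood apart in 17 genes, 0.175% of all genes, and in 6 without Bcl2-OHT replicate 3, 9 without Bcl2-OHT replicate 1 and 42 without EAAE-OHT replicate 3. Slc40a1, the iron exporter ferroportin, read 8.99, 8.25 and 7.79 in Bcl2+OHT, was below background on the 3 Bcl2-OHT arrays, and read 8.56, 8.01 and 7.76 in EAAE+OHT and 9.07, 8.32 and 9.53 in EAAE-OHT. It was at least 5.83-fold higher in Bcl2+OHT than in Bcl2-OHT, and Bcl2-OHT was at least 9.01-fold lower than EAAE-OHT (interaction 3.70 ± 0.50, limma, adjusted p = 0.000744). Tox, an HMG-box factor of lymphocytes, ran the other way. It was below background on 9 arrays and read 6.37, 7.0 and 6.47 in Bcl2-OHT, and Bcl2+OHT was at least 1.88-fold lower than Bcl2-OHT (interaction -1.98 ± 0.25, limma, adjusted p = 0.000472). Vipr1, a neuropeptide receptor, was likewise measured in Bcl2-OHT alone, at 6.21, 6.54 and 6.51 (interaction -1.59 ± 0.24, limma, adjusted p = 0.00147). The Vipr1 call was lost, up to 0.334, without Bcl2+OHT replicate 1, Bcl2-OHT replicate 3 or EAAE+OHT replicate 2. Without Bcl2-OHT replicate 1 or 2 Vipr1 did not pass the detection filter and was not tested. Tox, Vipr1, Galntl6 and Nat8l, 4 of the 5 genes high in Bcl2-OHT, entered the test through Bcl2-OHT alone, and with no filter their adjusted p was 0.000459, 0.00142, 0.0088 and 0.047 (limma).

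Besides Slc40a1 and a pair of MHC class II genes given below, 9 further genes were low in Bcl2-OHT. Ccl9, a macrophage chemokine, averaged 9.42, 5.53, 8.87 and 8.50 (interaction 3.52 ± 0.60, limma, adjusted p = 0.00312). Its Bcl2-OHT mean lay below the lowest detected signals of the Bcl2-OHT arrays (5.752 to 5.876), so the size of the difference is uncertain. Cd63, a lysosomal tetraspanin, averaged 9.58, 6.33, 8.45 and 8.50 (interaction 3.31 ± 0.65, limma, adjusted p = 0.00767). S100a6, a calcium-binding protein, averaged 8.77, 5.66, 9.03 and 8.91 (interaction 3.00 ± 0.48, limma, adjusted p = 0.00231). The S100a6 mean in Bcl2-OHT also lay below the lowest detected signals of those arrays. Axl, a receptor for apoptotic cells on macrophages, averaged 8.30, 6.03, 7.81 and 8.27 (interaction 2.74 ± 0.52, limma, adjusted p = 0.00603). A second kept Axl probe gave 0.06. Cfp, properdin of the complement system, averaged 10.74, 9.54, 10.79 and 11.05 (interaction 1.47 ± 0.37, limma, adjusted p = 0.0266), and its call was kept without Bcl2+OHT replicate 2, EAAE+OHT replicate 1 or any 1 EAAE-OHT array and lost without any other, up to 0.0706. Wfdc17, Rassf4, Rbm47 and Flot2 had interactions of 2.63, 1.92, 2.07 and 1.25 (limma, adjusted p = 0.00431, 0.00296, 0.0153 and 0.00961). Chst1, Galntl6 and Nat8l, like Tox and Vipr1, were high in Bcl2-OHT, with interactions of -1.39, -1.39 and -0.86 (limma, adjusted p = 0.00436, 0.00748 and 0.0382). The Nat8l call was lost, up to 0.104, without any 1 Bcl2+OHT array or EAAE+OHT replicate 2 or 3, and with the replicate number as a block within each background (limma, adjusted p = 0.0615). Without any 1 Bcl2-OHT array Nat8l did not pass the detection filter and was not tested. Under median scaling the calls of Ccl9, Cd63, Axl, Cfp, Rassf4, Rbm47, Flot2 and Nat8l were lost, and those of Cfp, Rassf4 and Nat8l also with the sign of the difference without Bcl2 turned.

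Antigen presentation on MHC class II had 3 of 15 measured genes higher, against 4.64% of all genes, and none lower, with a median interaction of 1.00. Its median difference was 1.34 with Bcl2 and 0.45 without Bcl2, and 7 of the 15 were lower in Bcl2-OHT than in EAAE-OHT, against 3.85% of all genes. H2-DMb1, which loads peptides on class II, averaged 8.40, 6.79, 8.86 and 8.61 with Bcl2-OHT apart (interaction 1.37 ± 0.34, limma, adjusted p = 0.0262). Its call was kept without Bcl2-OHT replicate 1 or 2, EAAE+OHT replicate 2 or EAAE-OHT replicate 1 or 3 and lost without any other array, up to 0.073. H2-Eb1, a class II chain, averaged 10.64, 7.73, 11.46 and 10.96, also with Bcl2-OHT apart (interaction 2.41 ± 0.70, limma, adjusted p = 0.0476). The H2-Eb1 call was kept without Bcl2+OHT replicate 3, Bcl2-OHT replicate 2, EAAE+OHT replicate 2 or EAAE-OHT replicate 3 and lost without any other array, up to 0.121. Marchf1, the ligase that turns class II over, averaged 8.29, 6.02, 6.95 and 7.29 and fell into no class (interaction 2.60 ± 0.40, limma, adjusted p = 0.00172). All 3 calls were lost under median scaling.

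**Figure D5:**
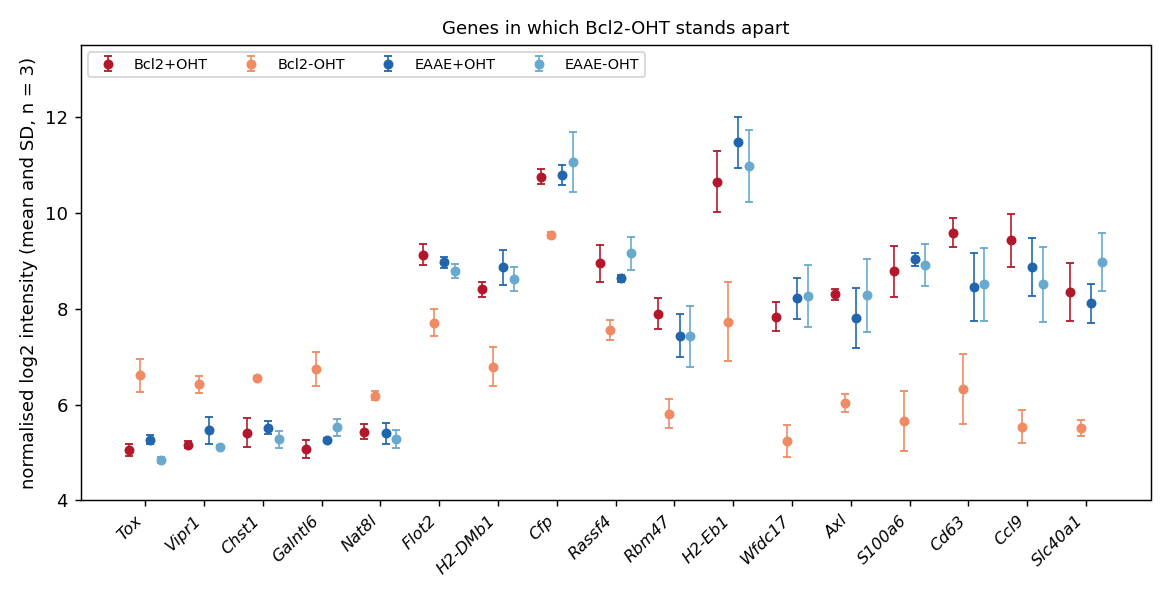
Mean level (log2 intensity, vertical axis) with SD (n = 3, bars) in each group for the 17 genes (horizontal axis) in which Bcl2-OHT stood apart. Bcl2-OHT is the lowest group in 12 genes, such as Slc40a1 and Ccl9, and the highest in 5, such as Tox.

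Neutrophil and monocyte markers differed between the backgrounds beside these genes. Of 25 markers 14 were measured. Their summed linear intensity ran over 2774 to 4994 in Bcl2+OHT, 791.3 to 1063 in Bcl2-OHT, 11550 to 20150 in EAAE+OHT and 11090 to 20960 in EAAE-OHT, and 6, 8, 0 and 0 of the 14 were below background. Ctsg, Mpo, Ltf, S100a8 and Fcer1g were below background in both Bcl2 groups, and Mpo, the myeloperoxidase of neutrophils, averaged 10.31 in EAAE+OHT and 10.07 in EAAE-OHT. In Bcl2-OHT 8 of the 14 were lower than in EAAE-OHT, against 3.85% of all genes, and in Bcl2+OHT 9 were lower than in EAAE+OHT, against 18.2%. For the interaction 2 of 14 passed higher, against 4.64%, and none lower, with a median of 0.30, or 0.01 with genes below background set at their bound. Lyz1, a lysozyme, averaged 9.25, 7.03, 12.88 and 13.02 (interaction 2.36 ± 0.57, limma, adjusted p = 0.0225). Its call was lost, up to 0.061, without Bcl2+OHT replicate 1 or 2, Bcl2-OHT replicate 1 or 3, or EAAE+OHT replicate 2 or 3, and under median scaling. Fcgr3, a low-affinity IgG receptor, read 10.42, 11.36 and 10.25 in Bcl2+OHT, 7.18, 7.88 and 7.21 in Bcl2-OHT, 7.28, 7.62 and 7.75 in EAAE+OHT and 7.44, 7.12 and 7.42 in EAAE-OHT. Its Bcl2+OHT arrays were clear of the other 9 (interaction 3.03 ± 0.41, limma, adjusted p = 0.000799). The part of myeloid cells in the 17 genes with Bcl2-OHT apart, and in the MHC class II result, was not tested.

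Adult globin genes were high in Bcl2-OHT. Hbb-bs, an adult beta globin, read 8.58, 8.42 and 8.16 in Bcl2+OHT, 12.40, 11.53 and 11.95 in Bcl2-OHT, 9.10, 8.55 and 8.85 in EAAE+OHT and 9.69, 10.00 and 9.40 in EAAE-OHT. Bcl2-OHT lay above the other groups without overlap (interaction -2.71 ± 0.35, limma, adjusted p = 0.000555). Hbb-bt, its near-identical neighbour that can share probe signal, averaged 7.80, 11.64, 8.44 and 9.34 (interaction -2.94 ± 0.38, limma, adjusted p = 0.000584). These were the 2 of 8 measured erythroid and globin genes that passed, both lower, against 6.17% of all genes, with a list median of -0.37. The list's summed linear intensity ran over 11470 to 14500 in Bcl2+OHT, 19070 to 25710 in Bcl2-OHT, 13450 to 15670 in EAAE+OHT and 13080 to 17840 in EAAE-OHT, and 1, 2, 0 and 2 of the 8 were below background. The part of red cells in the globin result was not tested.

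Many of the 274 genes in no class passed more than the interaction and the difference with Bcl2. The difference with Bcl2 passed for 114 higher and 127 lower, and Bcl2-OHT against EAAE-OHT for 83 higher and 103 lower. Ahnak, a large scaffold protein, read 9.38, 9.28 and 8.81 in Bcl2+OHT, 5.79, 6.21 and 5.68 in Bcl2-OHT, 8.79, 8.42 and 8.62 in EAAE+OHT and 8.65, 8.55 and 8.67 in EAAE-OHT. Bcl2-OHT was far below the other groups, but Bcl2+OHT also passed above EAAE+OHT, by 0.55 (limma, adjusted p = 0.0456), so Bcl2-OHT did not stand apart by the rule (interaction 3.28 ± 0.28, limma, adjusted p = 2.65e-05). Over the 3 kept Ahnak probes, of which 2 passed, the interaction ran from 0.30 to 3.28. Nkg7, a granule protein of cytotoxic lymphocytes, averaged 6.74, 9.02, 7.80 and 6.80 (interaction -3.28 ± 0.55, limma, adjusted p = 0.00304). With the sign of the difference without Bcl2 turned it was -1.28 (limma, adjusted p = 0.147).

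Ift43 and Tgfb3 were the genes besides Bcl11a that passed without Bcl2. Ift43, an intraflagellar transport protein, read 9.49, 9.72 and 9.77 in Bcl2+OHT, 9.99, 10.06 and 10.40 in Bcl2-OHT, 8.44, 8.07 and 8.64 in EAAE+OHT and 10.57, 10.40 and 11.05 in EAAE-OHT. The EAAE groups lay farthest apart, 4.91-fold lower in EAAE+OHT (-2.29, limma, adjusted p = 0.00137), while the difference with Bcl2 was -0.49 (limma, adjusted p = 0.126). Its interaction was 1.81 ± 0.30 (limma, adjusted p = 0.00304), lost under median scaling, and -2.78 (limma, adjusted p = 0.000124) when the sign of the difference without Bcl2 was turned. Tgfb3, a TGF-beta ligand, read 8.85, 8.77 and 9.32 in Bcl2+OHT, 10.83, 10.55 and 11.10 in Bcl2-OHT, 7.56, 8.10 and 7.96 in EAAE+OHT and 10.94, 11.00 and 10.41 in EAAE-OHT. It fell by label in both backgrounds, 3.59-fold with Bcl2 (limma, adjusted p = 0.000177) and 7.52-fold without it (limma, adjusted p = 0.000574). Its interaction was 1.07 ± 0.33 (limma, adjusted p = 0.0641), which passed without EAAE-OHT replicate 3 and with the replicate number as a block within each background (limma, adjusted p = 0.0461). It was -4.75 with that sign turned (limma, adjusted p = 5.53e-06). In RefSeq GRCm38.p6 the genes are neighbours on chromosome 12, with 0 genes starting between them.

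In the T cell list 1 of 11 measured genes passed, higher, against 4.64% of all genes, with a median of -0.16. This was Notch1, the receptor that commits cells to the T lineage, which averaged 8.99, 6.97, 7.0 and 7.24 (interaction 2.25 ± 0.53, limma, adjusted p = 0.0187). Its call was lost, up to 0.0508, without Bcl2+OHT replicate 2 or EAAE+OHT replicate 1. Of 4 NK and innate lymphoid markers Ccl5 passed higher, against 4.64%, and Nkg7 lower, against 6.17%, with a median of 0.25, and -0.39 under median scaling. Of 11 stem and progenitor genes 2 passed lower, against 6.17%, with a median of 0.19, and -0.35 under median scaling. These were Gfi1 and Egfl7, a secreted protein of endothelial cells and progenitors, with an interaction of -1.44 ± 0.27 (limma, adjusted p = 0.00603). Both calls were lost under median scaling, and that of Egfl7 also with the sign of the difference without Bcl2 turned. None passed among 9 plasmacytoid dendritic cell markers (median 0.25, and -0.28 under median scaling), 7 basophil and mast cell markers (median -0.13, or -0.58 with genes below background at their bound), 4 stromal and endothelial markers (median 0.21, or 0.071 at that bound) or 4 Y-linked genes and Xist (median 0.08).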

How the data were processed

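Each of 12 pro-B samples was hybridised to its own Illumina bead array after labelling with the Ambion MessageAmp kit per the labels' protocols. Which scanner software was used is not given in these sources. The deposited scanner table gives the linear intensity of each of 45263 probes, not normalised between arrays per the file headers. The deposited detection value beside it is a fraction between 0 and 1, from which the detection p was taken as 1 minus the value. The authors' series matrix holds a score per probe, which equals the linear intensity less its mean over the 15 arrays, over its SD, and served as an alternative only. The unused columns numbered 0. The number of arrays limits the precision.

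With limma 3.58.1 in R 4.3.3, background was corrected by detection p, an offset of 16 was added, and arrays were quantile normalised and taken to log2. Probes with a detection p under 0.05 on at least 3 arrays were kept (17719). In the gene table, 34874 probes have 1 symbol, 18 have several and 10371 are absent. The kept probe of highest mean stood for each gene, for 9687 genes in all, and 2822 kept probes were unnamed here. Other kept probes of a gene could give smaller interactions, such as 1.04 for Mmp13, 0.55 for Ifit3, 0.88 for Gbp2, -0.72 for Vipr1 and -1.36 for Lmnb1. One mean per group was fitted over the 12 arrays (lmFit, eBayes), with 8 residual and 3.38 prior degrees of freedom, and p-values were adjusted over all genes. On simulated data the median estimates of known interactions lay near their true values. That noise was independent, with 1 SD per gene for all groups, capped for the rule on standing apart, and without a dim array. The simulation therefore does not show how the rule behaves on arrays such as these. Errors are SE of a difference, or SD of a group. For a gene below background on every array of a group, the fold is a bound in which each such array counts at the lowest signal of its detected probes, or at the gene's own signal where that is higher.

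Same-numbered arrays deviated together within the Bcl2 background (correlations 0.39, 0.331 and 0.229) and within the EAAE background (0.354, 0.351 and 0.307). Across backgrounds the 12 correlations ran between -0.199 and 0.322, 5 of them over 0.1, and for none of the pairs of groups were all 3 over 0.1. Arrays of the same number within a background also shared a slide. Across backgrounds those numbered 2 lay on different slides, and their correlations ran from -0.199 to 0. Pairing and slide therefore cannot be told apart by these values. The numbers served as a block within a background in alternatives only, and the main fit held no block. Identical signals made up at most 0.236% of any pair of arrays. The alternatives varied normalisation, background, offset, filter, probe choice, block, slide, weights and single arrays.

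The members, 45 gene lists (990 genes, 917 on the array, 701 measured) and tests were chosen with earlier results of these data known. Named genes were Bcl11a, Bcl11b, Bcl2 and Trp53, the 8 highest and 8 lowest interactions among passing genes above background on at least 1 array of every group, 3 highest and 3 lowest of the other passing genes, 3 per class with the smallest p, and up to 2 per list. Tnfsf4, Atf3, Mcm5, Mcm6, Cdc20, Plk1, Rb1, Cdkn2b, Igll1, Fas, Cdkn1a, Bbc3, Igtp, Cish, Il7r, Foxo1, Xrcc6, Cd83, H2-Eb1, Tgfb3, the single myeloid markers besides Fcgr3 and Lyz1, and the rest of the 17 genes with Bcl2-OHT apart were chosen after their values were seen. Promoters are from RefSeq tables of GRCm38.p6, in which those of 27025 genes were searched. A gene counted as holding an element if any of its promoters held it. The other 3 arrays of the series were not used here.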

Additional observations from a re-analysis of the deposited data

Results flagged for a closer look

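The interaction, the test of whether the label difference with Bcl2 differs from that without it, passed for 1047 genes. The values below are interactions on the log2 scale of the named genes that passed (limma, adjusted p under 0.05), and their levels, errors and dependence on single arrays stand with each gene above. No cause was tested.

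Above 0 among genes above background on at least 1 array of every group were Grb10 at 3.83, Lrrc15 at 3.78, Ccl9 at 3.52, Mmp13 at 3.43, Cd63 at 3.31, Ahnak at 3.28, Ccl4 at 3.26 and Dlx1 at 3.08. With at least 1 group below background were Sln at 4.24, Hey1 at 4.09, Espn at 3.93, Slc40a1 at 3.70, Cd80 at 3.02 and Ak1 at 2.97. Immune and signalling genes above 0 were Fcgr3 at 3.03, Ifit3 at 2.68, Marchf1 at 2.60, Lyz1 at 2.36, Notch1 at 2.25, Socs3 at 2.24, Traf1 at 2.14, Jun at 2.07, Ccl5 at 2.06, Gbp2 at 1.97, Fosl2 at 1.94, Cd86 at 1.93, Itga5 at 1.89, Zbtb46 at 1.47, H2-DMb1 at 1.37, Bcl3 at 1.35, Id2 at 1.33 and Eng at 1.29. B lineage genes above 0 were Bcl6 at 2.32, Rag1 at 2.03, Btla at 1.95, Dntt at 1.92 and Ltb at 1.82. Genes of death, stress and transport above 0 were Ift43 at 1.81, Casp4 at 1.79, Bcl2l11 at 1.55, Ppp1r15a at 1.40, Hspa1a at 1.32, Mdm2 at 1.13, Sqstm1 at 1.13, Mcl1 at 1.10 and Casp1 at 1.08.

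Below 0 were the cell cycle genes Sapcd2 at -4.42, Pclaf at -4.32, Sgo1 at -4.07, Pbk at -4.05, Kif11 at -4.0, Cdkn3 at -3.94, Kif2c at -3.91, Oip5 at -3.87, Pif1 at -3.86, Mcm10 at -3.73, Fancd2 at -3.25, Rad54l at -3.24, Lmnb1 at -3.09, Cdc45 at -2.97, Myc at -2.72, Hmgb2 at -2.39, Cdk4 at -2.25, Tfdp1 at -2.03, E2f1 at -1.62 and Uhrf1 at -1.36. Below 0 in metabolism and protein synthesis were Tk1 at -4.02, Tyms at -3.96, Shmt1 at -2.85, Psat1 at -2.48, Cyp51 at -2.46, Sqle at -2.27, Nop58 at -1.92, Hspd1 at -1.85, Ldha at -1.64, Rpl4 at -1.63, Gapdh at -1.51, Polr1a at -1.33, Rpl30 at -1.08 and Cycs at -0.886. The remaining genes below 0 were Mrvi1 at -3.53, Mfsd2a at -3.48, Nkg7 at -3.28, Bok at -3.07, Hbb-bt at -2.94, Hbb-bs at -2.71, Bcl11a at -2.66, Tox at -1.98, Vipr1 at -1.60, Egfl7 at -1.44 and Gfi1 at -1.33.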

How the results depend on the processing

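Counts are given as genes passing the interaction and, of these, genes with Bcl2+OHT apart and with Bcl2-OHT apart, 1047, 755 and 17 as reported. Median scaling gave 365, 289 and 11, slide 1 alone 116, 112 and 2, slide 2 alone 3412, 537 and 14, array weights 2373, 1423 and 52, and the series matrix scores 0, 0 and 0 (1064 at an unadjusted p under 0.05, limma). Leaving out 1 array gave 621 to 2006, 469 to 1163 and 6 to 42. The third count was followed after seeing the data. Of alternatives chosen after seeing the data, leaving out EAAE-OHT replicate 3 with the replicate block gave 2351, 1390 and 35, and turning the sign of the difference without Bcl2 gave 1565 (783 higher and 782 lower), 1041 and 26, with 773 of the 1047 genes still passing and 26 of opposite sign. Dropping the condition on the interaction gave 1709 genes with Bcl2+OHT apart. With the sign turned Bcl11a was 1.08, Ift43 was -2.78 and Tgfb3 was -4.75, and the interaction of Lyz1 was -0.0893 in the series matrix scores. Bcl11a was -2.88 in those scores (limma, adjusted p = 0.295). The replicate block within each background gave 1189, 749 and 31, ended the calls of Xrcc6 and Nat8l, added Cdkn1a, Tgfb3, Pecam1 and Cox5a, and changed no other call of a named gene. The block on the number alone gave 1066, 765 and 23. Cyclic loess, no further background correction, an offset of 50, no filter, detection in each group, the mean of probes, slide as a factor and a robust trend gave 893 to 1268, 662 to 867 and 10 to 29. Of these the requirement of detection in each group gave 10 with Bcl2-OHT apart and slide as a factor 29. Of 91 passing genes named by the rule, 27 kept their call in every alternative run, the series matrix aside, which were 28 or, for 7 dim genes, 24 to 27. A further 63 lost it in at least 1, and Bcl11a kept it with the opposite sign when the sign was turned. Besides the losses under median scaling, slide 1 and the turned sign given above, calls ended for Sqstm1 and Foxo1 with cyclic loess, for Vipr1, Bcl3, Hspa1a, Sqstm1, Cdkn2b, Fas, H2-Eb1, Nat8l and Atf3 with no further background correction, for Nat8l and Tnfsf4 with an offset of 50, for Id2, Bcl3, Eng, Sqstm1, Fas, H2-Eb1 and Tnfsf4 with no filter, for Bcl2l11, Polr1a, Cycs and Foxo1 with the mean of probes, for Eng, Sqstm1 and Fas with the block on the number alone, for Bcl3, Nat8l and Tnfsf4 with a robust trend, and within slide 2 for Lyz1, Gfi1, Bcl3, Hspa1a, Eng, Polr1a, Cycs, Sqstm1, Cdkn2b, Fas, Foxo1, H2-Eb1, Flot2, Chst1, Tnfsf4 and Atf3. Apart from the array left out, the cause was not tested. The dim EAAE-OHT replicate 3 and 3 arrays per group limit what could be detected.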

Other observations

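Hmces, which shields abasic sites in DNA, lay lower by label in both backgrounds without reaching the interaction. It read 6.34, 6.90 and 6.57 in Bcl2+OHT, 9.23, 8.84 and 9.51 in Bcl2-OHT, 5.54, 5.70 and 5.95 in EAAE+OHT and 8.40, 8.20 and 7.07 in EAAE-OHT. Neither pair of groups overlapped. The difference was -2.59 with Bcl2 (limma, adjusted p = 0.000143) and -2.16 without Bcl2 (limma, adjusted p = 0.0575), and the interaction was -0.43 (limma, adjusted p = 0.596). Hmces was chosen after its values were seen.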
